A study of Mus musculus with 6 samples.

Results

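The BCL2 family genes of apoptosis, which comprise pro-survival and pro-death members, were chosen by symbol. Of 10 symbols, 8 had a row in the deposited table of 33682 genes: the pro-survival genes Bcl2, Bcl2l1 and Bcl2a1, the effectors Bax and Bak1, and the BH3-only genes Bcl2l11, Pmaip1 and Bid. Mcl1, a short-lived pro-survival protein, and Bbc3, the BH3-only protein PUMA, were not analysed here. All 8 rows are annotated as protein-coding. The values are FPKM, fragments per kilobase of gene length and scaled to library size, and 1 kilobase of transcript with 3 reads corresponds to 0.185 to 0.228 FPKM in these libraries.

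The BCL2 family decides whether the outer mitochondrial membrane stays intact or is opened to release cytochrome c, the step that starts the intrinsic pathway of apoptosis. Pro-survival members bind and hold back the effectors Bax and Bak1, which form the pores, and BH3-only members, named for the single homology domain they carry, either occupy the pro-survival proteins or activate the effectors directly. Much of this control lies in protein binding, cleavage and localisation, so transcript levels describe only the supply of each member.

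The 6 samples were cultured neonatal rat heart cells, labelled NRCMs and of WT genotype in both groups. They had received conditioned medium of BMMCs, bone marrow-derived mast cells treated with TNF-a: 3 samples the medium of WT mast cells (WT medium) and 3 that of ALOX5-/- mast cells (Alox5KO medium). ALOX5 is the 5-lipoxygenase that begins leukotriene synthesis. The design text calls the cultures NRCFs and asks which programs mast cell leukotrienes set off in them. Both groups had TNF-a in the history of the medium, samples without such medium were not analysed here, and leukotriene levels were not measured here, so leukotrienes and other differences of the media cannot be told apart. Nothing in the labels says that replicates were separate cultures, so p-values speak only of sample-to-sample spread, possibly technical.

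Libraries held 13284088 to 15766187 recovered reads, and samples correlated at 0.977 to 0.986 within groups and 0.928 to 0.943 between groups (Pearson, log2 FPKM + 1, across genes). WT-medium replicate 3 stood apart on the second principal component, at -25.0. The 12 fibroblast markers summed to between 11602 and 13423 FPKM and the 11 cardiomyocyte markers with a row to between 32.6 and 131, against the labelled cell type. Of the 12 fibroblast markers 3 were higher, Col3a1, Vim and Tcf21, at log2 fold changes of 0.84, 0.80 and 0.69. The 4 lower ones were Dcn at -4.10, Lum at -2.10, Fn1 at -1.10 and Pdgfra at -1.09. All of these were named after their values were seen. The sums of the 12 markers, 12035 to 12989 FPKM with WT medium and 11602 to 13423 with Alox5KO medium, overlapped. Cardiomyocyte, proliferating cell, mast cell and endothelial sums did not overlap between the groups, and leukocyte sums did. The cardiomyocyte, mast cell and endothelial sums mainly follow Tnnt2, Cpa3, and Egfl7 with Tek, and need not reflect the other markers. Counts of called markers stand beside 20.7% of all tested genes called. Cardiomyocyte markers summed to 32.6 to 57.3 FPKM with WT medium and 105 to 131 with Alox5KO medium. None of the 11 was at 0 throughout. Tnnt2, the most abundant, had 16.1 to 30.0 and 71.0 to 91.6 FPKM. Of 8 tested genes 4 were higher and 0 lower. The called Pln and Myh7, and the uncalled Myh6 and Actn2, reached the 1 FPKM mean needed for testing only through the Alox5KO-medium samples. That count therefore supports nothing about the list as a whole. The 8 markers of proliferating cells summed to 407 to 455 and 269 to 331, with 5 of 8 lower. The 9 mast cell markers summed to 43.4 to 61.4 and 22.3 to 32.3. Among them Kit, too low to be tested, went the other way without overlap, at 0.520 to 0.770 and 0.801 to 1.32 FPKM. Cpa3, the most abundant, fell by 1.18 on the log2 scale, the other tested one, Cma1, stood at 5.22 to 7.83 FPKM and was not called, and Fcer1a, Mcpt4, Ms4a2 and Tpsb2 were at 0 in every library. In the leukocyte list 1 of 3 tested genes fell, with sums of 31.8 to 36.1 and 23.5 to 38.3 and Cd3e at 0, and in the endothelial list 1 of 2, with sums of 13.2 to 15.3 and 10.6 to 12.7 and Emcn at 0. The leukocyte call was lost without WT-medium replicate 1 or 2 or Alox5KO-medium replicate 2 or 3, and the endothelial call without WT-medium replicate 2 or 3 or Alox5KO-medium replicate 1 or 3, with TPM scaling and without the filter on low values. The part of these shifts in the values below was not tested, and in bulk samples fewer cells of a type and less RNA per cell cannot be told apart.

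In cells given Alox5KO medium, Pmaip1 and Bcl2l1 rose, Bid and Bcl2l11 fell, and Bax, Bak1, Bcl2 and Bcl2a1 did not pass the test. The BH3-only members thus moved in opposite directions, the levels of the effectors overlapped between groups, and the only pro-survival member past the threshold was higher. A gene was called where limma, fitted on log2(FPKM + 1) of 12341 genes, gave a Benjamini-Hochberg adjusted p under 0.05. That rule called 20.7% of the tested genes, 1238 higher and 1313 lower with Alox5KO medium, and 4 of the 8 family genes, 2 in each direction. Of the pro-survival genes 1 of 3 was called, with a median log2 fold change of 0.02, and of the pro-death genes 3 of 5, with a median of -0.07. The median of all tested genes was -0.00082. The 8 genes passed the filter of a mean of at least 1 FPKM, but Bcl2a1 did so only through the WT-medium samples, so these counts support nothing about the family as a whole.

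**Figure D1:**
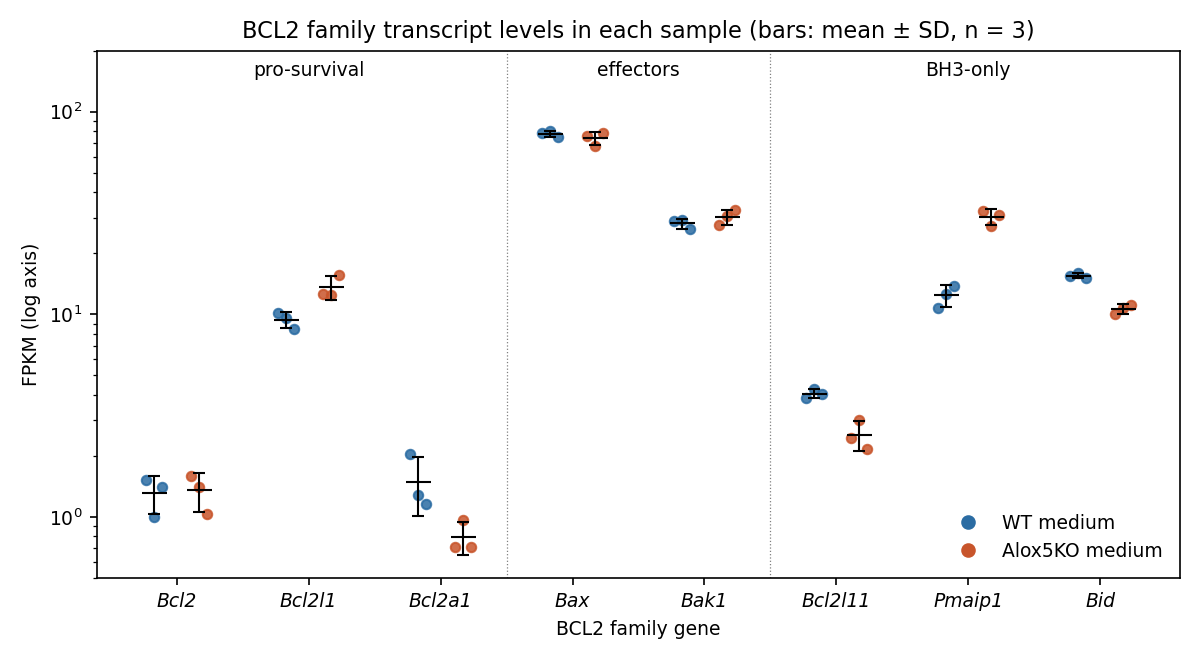
FPKM of the 8 BCL2 family genes on a log axis, with 1 point per sample, WT medium in blue and Alox5KO medium in orange, and bars for the mean and SD of 3 samples. The groups lie apart for Bcl2l1, Bcl2a1, Bcl2l11, Pmaip1 and Bid, and overlap for Bcl2, Bax and Bak1.

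Pmaip1 encodes Noxa, a BH3-only protein that binds chiefly MCL1 and BCL2A1. Its levels were 10.8, 12.6 and 13.8 FPKM in the WT-medium samples and 32.5, 27.2 and 31.0 FPKM in the Alox5KO-medium samples. Every Alox5KO-medium sample was higher than every WT-medium sample, by a wide gap. The means were 12.4 ± 1.51 and 30.2 ± 2.75 FPKM (SD, n = 3 each), a 2.44-fold rise. On the log2 scale the change was 1.22, standard error 0.12 (adjusted p = 0.00013, limma). Pmaip1 (ENSRNOG00000018770) lies on chromosome 18 from 62174670 to 62181102, in coordinates as deposited.

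Bid links the death receptors to mitochondria, being cut by caspase-8 into its active form. It stood at 15.5, 16.0 and 15.1 FPKM with WT medium and at 9.99, 10.8 and 11.1 FPKM with Alox5KO medium. The groups did not overlap, and each varied little. Bid fell from a mean of 15.5 ± 0.457 to 10.6 ± 0.582 FPKM (SD, n = 3 each), 1.46-fold. On the log2 scale the change was -0.51, standard error 0.10 (adjusted p = 0.0053, limma). Bid (ENSRNOG00000012439) lies on chromosome 4 from 153442218 to 153465203.

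Bcl2l11 encodes BIM, a BH3-only protein that binds all pro-survival relatives and is induced when growth factors are withdrawn. Its 6 values were low, at 3.87, 4.26 and 4.06 FPKM in the WT-medium samples and 2.46, 3.02 and 2.17 FPKM in the Alox5KO-medium samples. All 3 Alox5KO-medium samples lay below the WT-medium samples. The means of 4.06 ± 0.194 and 2.55 ± 0.434 FPKM (SD, n = 3 each) differed 1.59-fold, and the log2 fold change of -0.52 had a standard error of 0.14 (adjusted p = 0.027, limma). This call did not hold without WT-medium replicate 1, 2 or 3 or Alox5KO-medium replicate 1 or 3, at adjusted p of 0.077, 0.099, 0.056, 0.079 and 0.084, nor with FPKM rescaled to TPM, at 0.061 (limma), and over all alternatives it ran from 0.011 to 0.099. Bcl2l11 (ENSRNOG00000016551) lies on chromosome 3 from 120726906 to 120764192.

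The make-up of the transcripts of the 3 BH3-only members therefore differed between the media, a summary chosen after the values were seen. Bid was the most abundant of the 3 with WT medium, where Pmaip1 made up 38.7% ± 3.07 (SD, n = 3) of their summed FPKM. With Alox5KO medium Pmaip1 made up 69.5% ± 3.07 (SD, n = 3), and the share of Bid was 24.6% ± 2.13 against 48.6% ± 2.82 (SD, n = 3 each). The sum itself was 30.2, 32.9 and 32.9 FPKM in the WT-medium samples and 44.9, 41.0 and 44.3 FPKM in the Alox5KO-medium samples, so the gain in Pmaip1 exceeded the losses of Bid and Bcl2l11. The log2 ratio of Pmaip1 to Bcl2l11 was 1.60 ± 0.14 and 3.58 ± 0.36 (SD, n = 3 each). Bbc3 is not in these sums, nor are BH3-only genes outside the members, so the shares are not shares of all BH3-only transcripts. Among those left out, Bad had 36.8 ± 0.810 and 38.5 ± 3.47 FPKM and Bmf 0.806 ± 0.362 and 1.49 ± 0.375 (SD, n = 3 each). Neither was called.

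**Figure D2:**
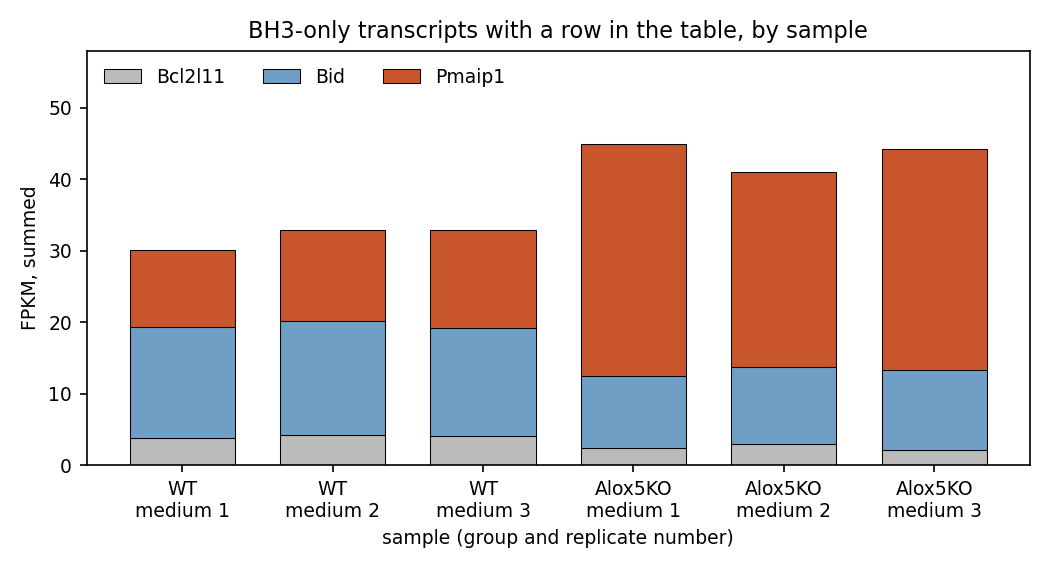
Summed FPKM of Bcl2l11, Bid and Pmaip1 in each of the 6 samples, stacked from 0, without other BH3-only genes such as Bad. Pmaip1 takes 35.8% to 41.9% of the sum in the WT-medium samples and 66.2% to 72.3% in the Alox5KO-medium samples.

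Bax and Bak1, the pore-forming effectors, were the most abundant members with WT medium and neither passed the test. Bax had 78.1, 80.3 and 75.3 FPKM in the WT-medium samples and 76.2, 68.1 and 78.4 FPKM in the Alox5KO-medium samples, and the groups overlapped. Its log2 fold change was -0.07, with a 95% interval of the limma fit from -0.28 to 0.14. Bak1 had 28.9, 29.1 and 26.3 FPKM in the WT-medium samples and 27.5, 30.4 and 32.6 FPKM in the Alox5KO-medium samples, also overlapping. Its log2 fold change was 0.10, with an interval from -0.13 to 0.32. With 1349 to 1516 reads for Bax and 769 to 1001 for Bak1 in every library, counting error was 2.61% to 3.56% of the level, and both upper bounds lie below the log2 fold change of Pmaip1. Bax (ENSRNOG00000020876) lies on chromosome 1 from 101451802 to 101457207 and Bak1 (ENSRNOG00000000485) on chromosome 20 from 5609625 to 5618260. A pair of processed pseudogenes described as copies of Bax had at most 0.598 FPKM.

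Bcl2l1 encodes BCL-XL and was the most abundant of the 3 pro-survival members with a row. Bcl2l2, a pro-survival gene outside the members, was higher, at 15.9 ± 1.32 and 16.4 ± 1.82 FPKM (SD, n = 3 each), and was not called. Bcl2l1 had 10.2, 9.56 and 8.47 FPKM in the WT-medium samples and 12.6, 12.4 and 15.7 FPKM in the Alox5KO-medium samples. The groups did not overlap, with Alox5KO-medium replicate 3 the highest. It rose from a mean of 9.41 ± 0.876 to 13.6 ± 1.82 FPKM (SD, n = 3 each), 1.44-fold, with a log2 fold change of 0.48 and a standard error of 0.12 (adjusted p = 0.023, limma). With replicate 2 or 3 of the WT medium, or replicate 3 of the Alox5KO medium, left out, the adjusted p was 0.062, 0.062 and 0.07 (limma), within a range of 0.0083 to 0.07 over all alternatives, while the log2 fold change was 0.49, 0.42 and 0.38. The span of the gene (ENSRNOG00000007946), chromosome 3 from 148259596 to 148313810, also holds a pseudogene on the other strand, LOC108350502, from 148283209 to 148284141. Its level was 269 ± 27.7 and 284 ± 84.4 FPKM (SD, n = 3 each), a log2 fold change of 0.04. It was highest in Alox5KO-medium replicate 3, at 381, as was Bcl2l1, and lowest in Alox5KO-medium replicate 1, at 230. Among the WT-medium samples it was highest in replicate 3, at 294, where Bcl2l1 was lowest. The part of the pseudogene in the Bcl2l1 values was not tested. A further row of 513 bases described as a copy of Bcl2l1 had at most 1.48 FPKM.

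Bcl2, the founding pro-survival gene, was scarce and did not differ detectably. It had 1.52, 0.998 and 1.41 FPKM in the WT-medium samples and 1.60, 1.41 and 1.03 FPKM in the Alox5KO-medium samples, from 27 to 50 reads per library. The groups overlapped. Its log2 fold change of 0.02 had an interval from -0.38 to 0.43 (limma). Bcl2 (ENSRNOG00000002791) lies on chromosome 13 from 26605426 to 26769374. The sign of its fold change turned without WT-medium replicate 2 or Alox5KO-medium replicate 1 or 2.

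Bcl2a1 encodes A1, a pro-survival protein known as an NF-kB target and found mainly in leukocytes. It had 2.05, 1.28 and 1.16 FPKM in the WT-medium samples and 0.711, 0.962 and 0.713 FPKM in the Alox5KO-medium samples, from 9 to 24 reads per library. The groups did not overlap. The means were 1.49 ± 0.481 and 0.795 ± 0.144 FPKM (SD, n = 3 each), and the log2 fold change of -0.46 had an interval from -0.89 to -0.03, but adjusted over all genes it did not pass (limma, Benjamini-Hochberg adjusted p = 0.13, and 0.11 to 0.26 over the alternatives). Bcl2a1 (ENSRNOG00000047606) lies on chromosome 8 from 96551245 to 96559483. At this depth counting error alone was 24.0% of the WT-medium level and 31.1% of the Alox5KO-medium level, beside a spread between samples of 32.2% and 18.1%. Across the family the groups did not overlap for 5 of the 8 genes, beside 37.6% of all tested genes.

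**Figure D3:**
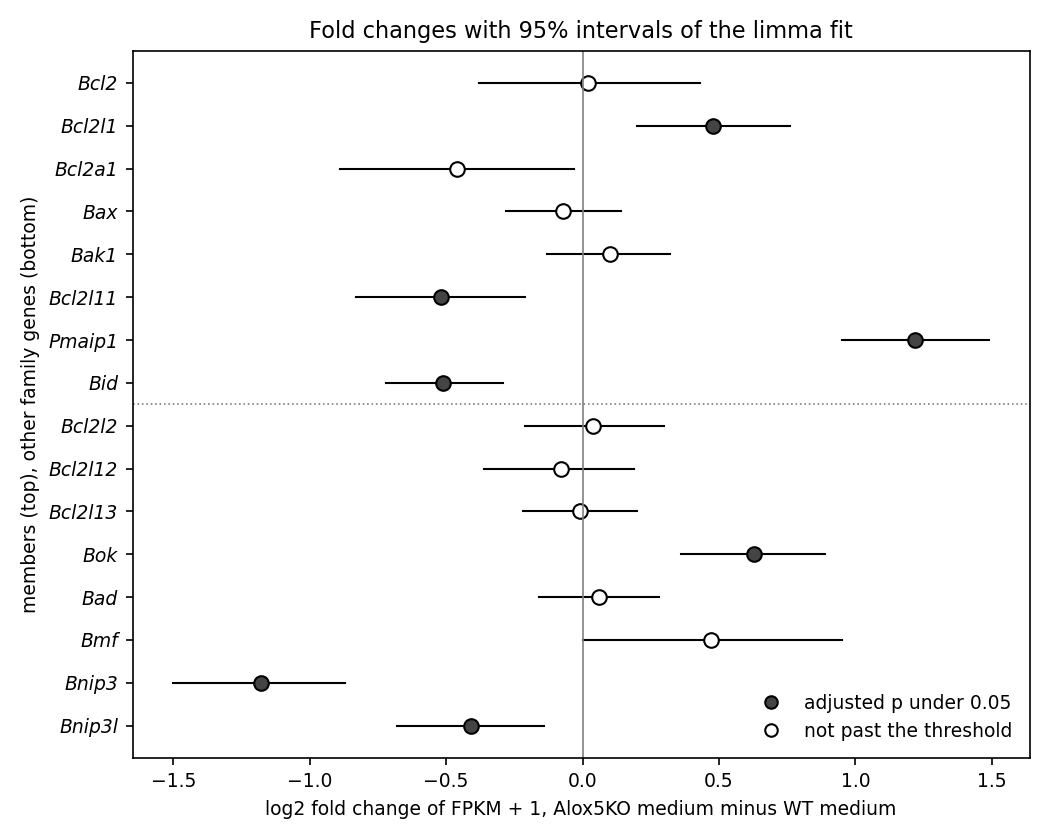
Log2 fold change of FPKM + 1, Alox5KO medium minus WT medium, for the 8 members and, under the dotted line, 8 other tested family genes, with 95% intervals of the limma fit and filled points for adjusted p under 0.05. Pmaip1 at 1.22 lies farthest to the right and Bnip3 at -1.18 farthest to the left.

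Ordered by mean FPKM with WT medium, the levels ran Bax, Bak1, Bid, Pmaip1, Bcl2l1, Bcl2l11, Bcl2a1 and Bcl2, and the sample ranges of neighbours overlapped only for Bcl2a1 and Bcl2. With Alox5KO medium the order was Bax, Pmaip1, Bak1, Bcl2l1, Bid, Bcl2l11, Bcl2 and Bcl2a1, and only the ranges of Pmaip1 and Bak1 overlapped. Pmaip1 thus stood at the level of Bak1, and Bcl2l1 above Bid, which had been the reverse. The log2 ratio of Bax to Bcl2, a customary measure of balance, was 5.68, 6.33 and 5.74 with WT medium and 5.57, 5.59 and 6.25 with Alox5KO medium. These ranges overlapped, at 5.92 ± 0.36 and 5.81 ± 0.39 (SD, n = 3 each), and the scarcity of Bcl2 reads limits them. With Bcl2l1 in its place, a choice made after the values were seen, the log2 ratio was 3.05 ± 0.11 and 2.46 ± 0.14 (SD, n = 3 each), lower in all 3 Alox5KO-medium samples. Bcl2l1 made up 77.2% ± 3.37 and 86.2% ± 3.34 (SD, n = 3 each) of the summed FPKM of the 3 pro-survival members, a sum without Bcl2l2.

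The calls differed in how they held. Pmaip1 and Bid were called in each of 15 alternatives, with adjusted p from 3.1e-05 to 0.0017 and from 0.0044 to 0.031 (limma) and log2 fold changes from 1.13 to 1.31 and from -0.54 to -0.46. Bcl2l1 was called in 12 of 15 and Bcl2l11 in 8 of 14, with no change of sign in those run. Bax, Bak1, Bcl2 and Bcl2a1 were called in none of theirs.

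**Figure D4:**
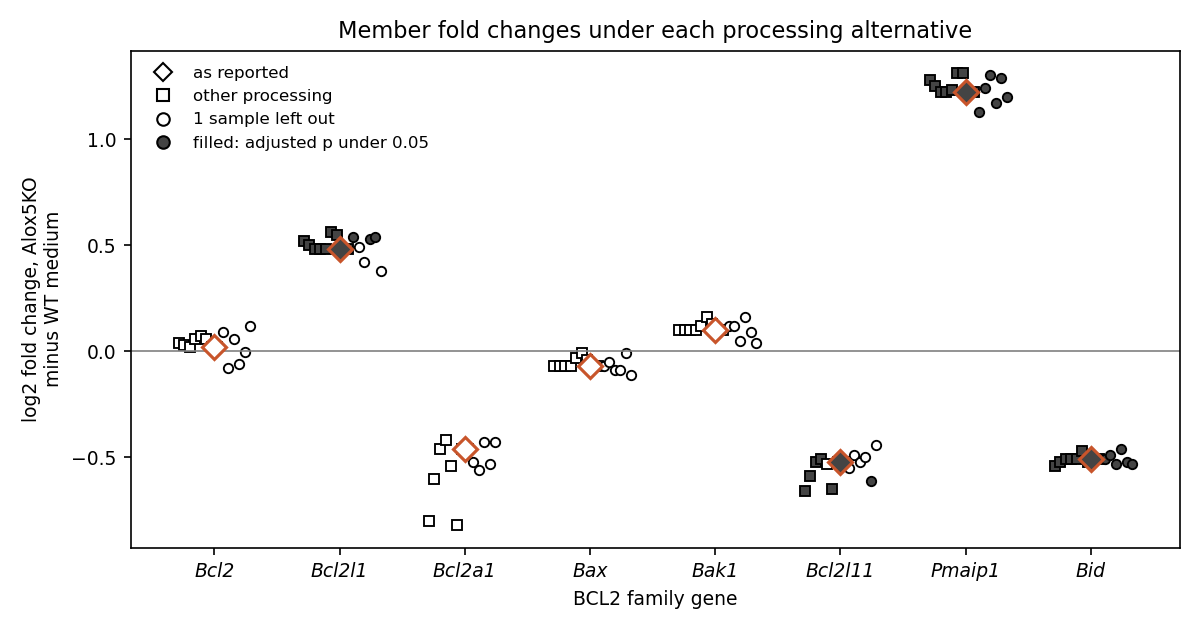
Log2 fold change of each of the 8 members as reported (diamonds), under other processing (squares) and with 1 sample left out (circles), filled where adjusted p was under 0.05. Pmaip1 and Bid are filled throughout, whereas Bcl2l11 is filled in 1 of 6 circles and Bcl2l1 in 3 of 6.

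Among 13 other genes of the family 12 had a row and 8 were tested, of which 1 rose, 2 fell and 5 did not pass. The called share was 37.5%, beside 20.7% of all tested genes. Bok, an effector-like relative of Bax, rose from a mean of 20.7 ± 2.12 to 32.6 ± 3.84 FPKM (SD, n = 3 each), or on the log2 scale 0.63 (adjusted p = 0.0051, limma). Bnip3, a mitochondrial BH3-like protein of mitophagy induced by hypoxia, was the most abundant of them. It had 250, 214 and 177 FPKM in the WT-medium samples and 104, 85.8 and 89.4 FPKM in the Alox5KO-medium samples, every sample of the latter lower. It fell by 1.18 on the log2 scale (adjusted p = 0.00041, limma). Its paralog Bnip3l fell by 0.41 (adjusted p = 0.04, limma). That call was kept in 1 of the 6 leave-outs, without Alox5KO-medium replicate 1, and the falls then numbered 1 in the other 5 and without the filter on low values.

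The caspases and the apoptosome, the complex that activates them, formed a further list. Of 16 tested caspase and apoptosome genes 2 fell, 0 rose and 14 did not pass. The called share was 12.5%, beside the 20.7% of all tested genes. The groups did not overlap for 6 of the 16, beside 37.6% of all tested genes. Cflar, the c-FLIP inhibitor of caspase-8, fell from a mean of 29.0 ± 3.41 to 12.4 ± 0.720 FPKM (SD, n = 3 each), or on the log2 scale -1.15 (adjusted p = 0.00012, limma). Htra2, a mitochondrial protease that antagonises the inhibitor of apoptosis proteins once released, fell by 0.77. Among those inhibitor proteins 2 of 5 tested genes fell and 0 rose, a called share of 40.0% beside the same 20.7%. Birc3, cIAP2, went from 43.3, 36.7 and 37.9 FPKM to 6.44, 6.38 and 7.47 FPKM. Birc5, survivin, which serves mitosis as well and is in the proliferating cell list whose sum was lower with Alox5KO medium, fell by 0.94.

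Death receptor genes that passed the test fell. Of 9 tested, 4 fell, 0 rose and 5 did not pass, a called share of 44.4% beside 20.7% of all tested genes. Tnfrsf21, death receptor 6, fell from a mean of 3.65 ± 0.766 to 1.45 ± 0.319 FPKM (SD, n = 3 each), or on the log2 scale -0.92 (adjusted p = 0.0057, limma). Log2 fold changes were -0.39 for the necroptosis kinase Ripk3, -0.47 for the TNF receptor Tnfrsf1b and -0.51 for the death receptor Fas. Only 1 of these falls was called without WT-medium replicate 1, and 2 without Alox5KO-medium replicate 3 or with TPM scaling. The Fas call was lost without WT-medium replicate 1 or 2, Alox5KO-medium replicate 2 or 3, or the filter on low values. That of Tnfrsf1b was lost without WT-medium replicate 1 or 3 or Alox5KO-medium replicate 1 or 3, and with TPM scaling. That of Ripk3 was lost without WT-medium replicate 1 and with TPM scaling, and Tnfrsf21 kept its call wherever tested.

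Genes of the endoplasmic reticulum and integrated stress responses, which can feed into Pmaip1 and Bcl2l11, were called in both directions. Of 14 tested, 4 fell, 1 rose and 9 did not pass, a called share of 35.7% beside 20.7% of all tested genes. Hspa5, the chaperone BiP, fell from a mean of 725 ± 89.8 to 380 ± 28.1 FPKM (SD, n = 3 each), or on the log2 scale -0.93 (adjusted p = 0.00083, limma). Log2 fold changes were -1.01 and -0.71 for the transcription factors Atf3 and Atf6, and -0.45 for Xbp1, named after its values were seen. The Xbp1 call was lost without WT-medium replicate 1 or 2, at adjusted p of 0.066 and 0.052 (limma), within a range of 0.0098 to 0.066 over its alternatives. In contrast, Chac1, a target of ATF4, rose by 0.50. Among those that did not pass were Atf4 itself at -0.02, Ddit3 at 0.04, Trib3 at -0.03 and Asns at -0.20, named after their values were seen. The part of these responses in the Pmaip1 and Bcl2l11 values was not tested. The NF-kB feedback list had a median log2 fold change of -0.98 over 14 tested genes. Of these 12 fell and 0 rose, a called share of 85.7% beside 20.7% of all tested genes. Their log2 fold changes were -1.64 for Tnip1 and -2.36 for Tnfaip3, both brakes on the NF-kB pathway, -2.33 for Traf1, a partner of cIAP2, and -1.30 for the inhibitor Nfkbia. A link of this list to the values of the members was not tested. Counted together, 28 of 66 tested genes of these lists were called, 42.4% beside 20.7% of all tested genes. Without the NF-kB list it was 16 of 52, or 30.8%, 2 higher and 14 lower. The lists were chosen with earlier results known, so these shares support nothing about the pathway as a whole.

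**Figure D5:**
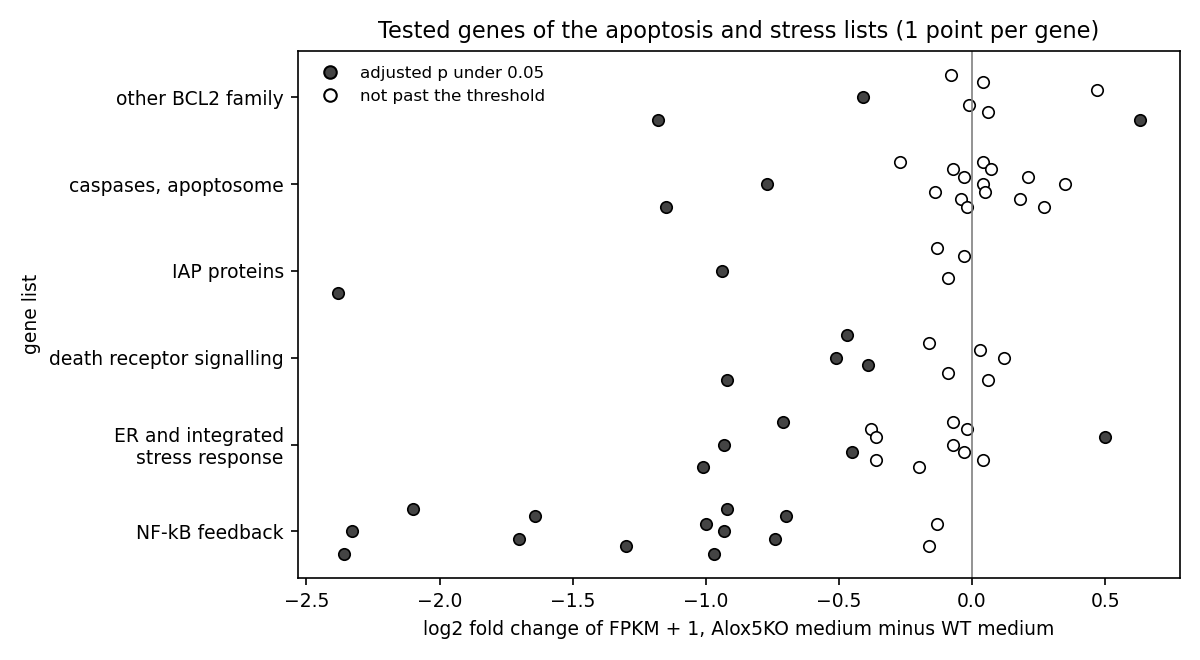
Log2 fold change of FPKM + 1, Alox5KO medium minus WT medium, of each tested gene in 6 lists of apoptosis and stress genes, filled where adjusted p was under 0.05, with vertical position within a list only for legibility. The NF-kB feedback genes lie to the left of 0, with a median of -0.98, and most caspase and apoptosome genes lie near 0.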

How the data were processed

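RNA was sequenced from 6 samples, 3 per medium, grouped and numbered by the sample titles. The authors deposited FPKM with 1 column per sample, gene length and position, per the file headers. The submitters' processing notes name, without roles, the build mm10 and the tools featureCounts 1.5.0-p3, HISAT2 2.0.5, fastp, DESeq2 1.20.0 and CASAVA 1.8, whereas 32883 of 33682 rows carry rat Ensembl identifiers and 0 mouse ones. The rat build and the strand setting are not given in the sources used here. Overlapping genes and near-identical copies are therefore uncertain.

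FPKM times length came in whole multiples of 1 step per column, within 0.05 reads for 100.0% of values above 0, which gave the reads and depths. Counting intervals cover counting error only. Genes whose mean reached 1 FPKM were tested on log2(FPKM + 1), which understates changes of low genes, with limma 3.58.1 in R 4.3.3 (trend, robust prior, two-sided, Benjamini-Hochberg over 12341 genes, threshold 0.05), without a replicate block. Intervals are 95% intervals of that fit, before adjustment.

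The members, lists and tests were chosen with earlier results of these data known. Members and, from each other list, up to 4 called genes with the smallest p are named, with exceptions stated. A few listed genes and 1 gene list are not reported here. Symbols were matched without regard to case, taking the row of highest mean where a symbol recurs. The fit was tested on simulated data. Alternatives were pseudocounts of 0.1 and 0.5, no filter, a minimum mean of 5 FPKM, quantile normalization, TPM scaling, limma voom on recovered reads, a prior that is not robust, a replicate block, and leaving out each sample.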

Additional observations from a re-analysis of the deposited data

How the results depend on the processing

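The number of called genes was 2551, and it was 1637 without WT-medium replicate 1, with 1637 to 2538 over the 6 leave-outs and 2021 to 2703 over the other alternatives. The pro-survival count of 1 became 0 on leaving out replicate 2 or 3 of the WT medium or replicate 3 of the Alox5KO medium, so it ran from 0 to 1 with a sample left out. The pro-death count of 3 became 2 in 7 alternatives, each time by the loss of Bcl2l11, which was not tested at a mean of at least 5 FPKM. The fold change of Bcl2, not called in any alternative run, ran from -0.08 to 0.12 with a sample left out. The Bax to Bcl2 log2 difference of -0.11 ran from -0.33 without Alox5KO-medium replicate 3 to 0.10 without WT-medium replicate 2, and it was above 0 without Alox5KO-medium replicate 1 too, at 0.01. Leaving out 1 of 3 samples cannot move a group mean by as much as its SD, so the size of these shifts says nothing about stability. Among other genes 20 of 418 alternative values lost the call and 0 changed direction, and the caspase list gained 1 rise without Alox5KO-medium replicate 3. Some of these losses came with a sample left out and others with all 6 samples kept, and their cause was not tested.

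The labels do not say whether the replicate numbers pair the samples. Same-numbered samples deviated together at correlations of -0.10, 0.10 and 0.17, and 2 of 3 correlated best with their own number. With 3 samples per group these values cannot settle whether the samples are paired. A replicate block gave 2652 called genes, the same 4 members, and 28 called genes of the other lists, as many as without it. Depth limits Bcl2 and Bcl2a1, with 9 to 50 reads per library.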

Other observations

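Some low genes of these lists are named here after their values were seen. Casp6, an executioner caspase, had 62 reads in WT-medium replicate 2 and 66 in Alox5KO-medium replicate 1, against 3 and 8 in the other WT-medium libraries and 17 and 12 in the other Alox5KO-medium libraries. Its log2 fold change of 0.18 had a 95% interval from -1.07 to 1.43 (limma). Bik, a BH3-only gene, had 2, 1 and 3 reads with WT medium and 0 in each Alox5KO-medium library, and was below the filter, so the difference was not tested. Bcl2l14 had 13 to 26 reads per library, with overlapping groups.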
